A study of Mus musculus with 9 samples.

Results

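The genes described here encode the machinery of endoplasmic reticulum (ER)-associated degradation (ERAD), the route by which misfolded secretory proteins are removed from cells. A list of 32 genes was taken by gene symbol, current or former, from probe sets annotated to 1 of these genes alone. The symbol rule uses no measured value, but the genes were chosen with earlier results of these data known. Of 18193 genes with such a probe set, 11453 were tested, and all 32 ERAD genes were among them, through 59 of their 64 probe sets. The arrays held large intestine from 9 mice labelled male and aged 8 wk, with 3 mice in each of 3 groups. Wild-type mice were C57BL/6. *Winnie* mice carry, on C57BL/6, a missense mutation induced with N-ethyl-N-nitrosourea that replaces a cysteine with a tyrosine in the N-terminal D3 domain of MUC2, the gel-forming mucin of goblet cells. *Eeyore* mice descend from a C57BL/6 founder treated with the same mutagen, are labelled a mixed strain of C57BL/6 and NOD-SCID, and have a serine of the D4 domain, near the C-terminus of MUC2, replaced with a proline. The *Eeyore* allele and its strain background therefore cannot be told apart. RNA came from whole proximal and distal large intestine, joined in equal parts for each mouse, so that all cell types of the wall contributed.

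In ERAD, glycoproteins that fail to fold are marked by slow trimming of mannose residues, read by lectins and passed to a membrane channel built around the ubiquitin ligase HRD1 and its partner SEL1L. The substrate is ubiquitinated at the cytosolic face, pulled out of the membrane by the ATPase p97 and delivered to the proteasome. The route is active in cells with a heavy secretory load, such as goblet cells and plasma cells, and several of its genes are known targets of the unfolded protein response, the program set off by misfolded protein through the sensors IRE1, PERK and ATF6.

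Values are linear Affymetrix signals, each array scaled by the depositors to a trimmed mean of 500, and differences are on the log2 scale with their standard errors from limma. Each gene is read from its brightest probe set, the one with the highest mean log2 signal over all arrays. Every brightest ERAD probe set lay at or above percentile 73.2 of all probe sets, with a lowest signal of 192 on any array. With 3 mice against 3 an exact permutation test cannot give a p below 0.1, so tests rest on the limma fit across all probe sets. Both mutants were compared with the same 3 wild-type mice, and their values are given side by side. The 3 wild-type mice did not match their label of sex: *Xist*, the RNA of the inactive X chromosome, read 7371 to 8261 in wild-type and at most 107 in every mutant, and the Y-linked *Eif2s3y* read at most 24.1 in wild-type and 1074 to 1454 in the mutants. In comparisons with wild-type, sex and *Muc2* allele cannot be told apart. Markers of the cell types of the wall differed as well. All 13 smooth muscle markers were lower in both mutants (median log2 fold change -1.13 in *Winnie* and -1.56 in *Eeyore*), and their summed signal was 195533 to 202184 in wild-type, 89432 to 97629 in *Winnie* and 73009 to 80318 in *Eeyore*. Of 8 epithelial markers, 4 were higher in *Winnie* and 6 in *Eeyore*, with medians of 0.24 and 0.38 and a summed signal of 176347 to 180583 in wild-type, 218936 to 226038 in *Winnie* and 226190 to 253341 in *Eeyore*. Of 9 goblet cell markers, 1 was higher and 4 were lower in *Winnie*, and 2 were higher and 3 lower in *Eeyore*, with a summed signal of 333017 to 372624 in wild-type, 220326 to 270118 in *Winnie* and 309327 to 364399 in *Eeyore*. The part of these shifts in the ERAD values was not tested, and in bulk tissue fewer cells of a type and less RNA per cell cannot be told apart.

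A minority of the ERAD genes changed, and more of them in *Eeyore* than passed the test in *Winnie*. In *Winnie*, 3 of 32 genes were higher (9.38%), namely *Herpud1*, *Derl2* and *Fbxo6*, and 1 was lower (3.12%), *Man1b1*. Over all genes tested, 11.3% were higher and 11.9% lower in *Winnie*, so the share of ERAD genes called higher was near the background. In *Eeyore*, 8 of 32 were higher (25%), namely *Syvn1*, *Herpud1*, *Derl2*, *Derl3*, *Edem1*, *Edem2*, *Fbxo6* and *Rnf139*, against 14% of all genes, and 2 were lower (6.25%), *Rnf185* and *Svip*, against 16.6% of all genes. Between *Eeyore* and *Winnie* 1 gene was higher in *Eeyore*, *Derl3*, and 1 lower, *Rnf185*, where 1.29% and 1.3% of all genes passed. Of the 7 genes called in *Eeyore* and not in *Winnie*, the other 5 did not pass the test between the mutants. The median log2 fold change of the 32 genes was 0.10 in *Winnie* and 0.18 in *Eeyore*, beside -0.05 and -0.04 over all genes. Values lay above zero for 20 of 32 genes in *Winnie* and 25 of 32 in *Eeyore*, beside 5233 and 5351 of all 11453 genes tested. This background is not matched for brightness: it reaches down to the median signal, and the ERAD genes only to percentile 73.2. At the same trimmed mean, the median signal of an array was 119 to 129 in wild-type, 88.1 to 95.4 in *Winnie* and 95.8 to 99.5 in *Eeyore*. The part of brightness in the ERAD values was not tested. The changes were modest in size. By the ratio of mean signals, no ERAD gene reached 2-fold in *Winnie*, where 1.96% of all genes were at least 2-fold higher and 5.86% lower, and *Derl3* alone did so in *Eeyore*, where 2.87% were higher and 8.09% lower. The counts depended on the scaling of the arrays. With quantile normalisation, 3 of 32 genes were higher in *Winnie* (9.38%) and 7 in *Eeyore* (21.9%), beside 11.7% and 15.1% of all genes. With each array centred on its own median, 10 of 32 genes were higher in *Winnie* (31.2%) and 15 in *Eeyore* (46.9%). Of all genes, 18.4% and 22.9% were higher with that centring. The share of ERAD genes in *Winnie* then lay above the background instead of near it. With that centring 70.4% and 67.5% of the calls over all genes were in the higher direction, beside 48.6% and 45.8% with the deposited scaling.

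**Figure D1:**
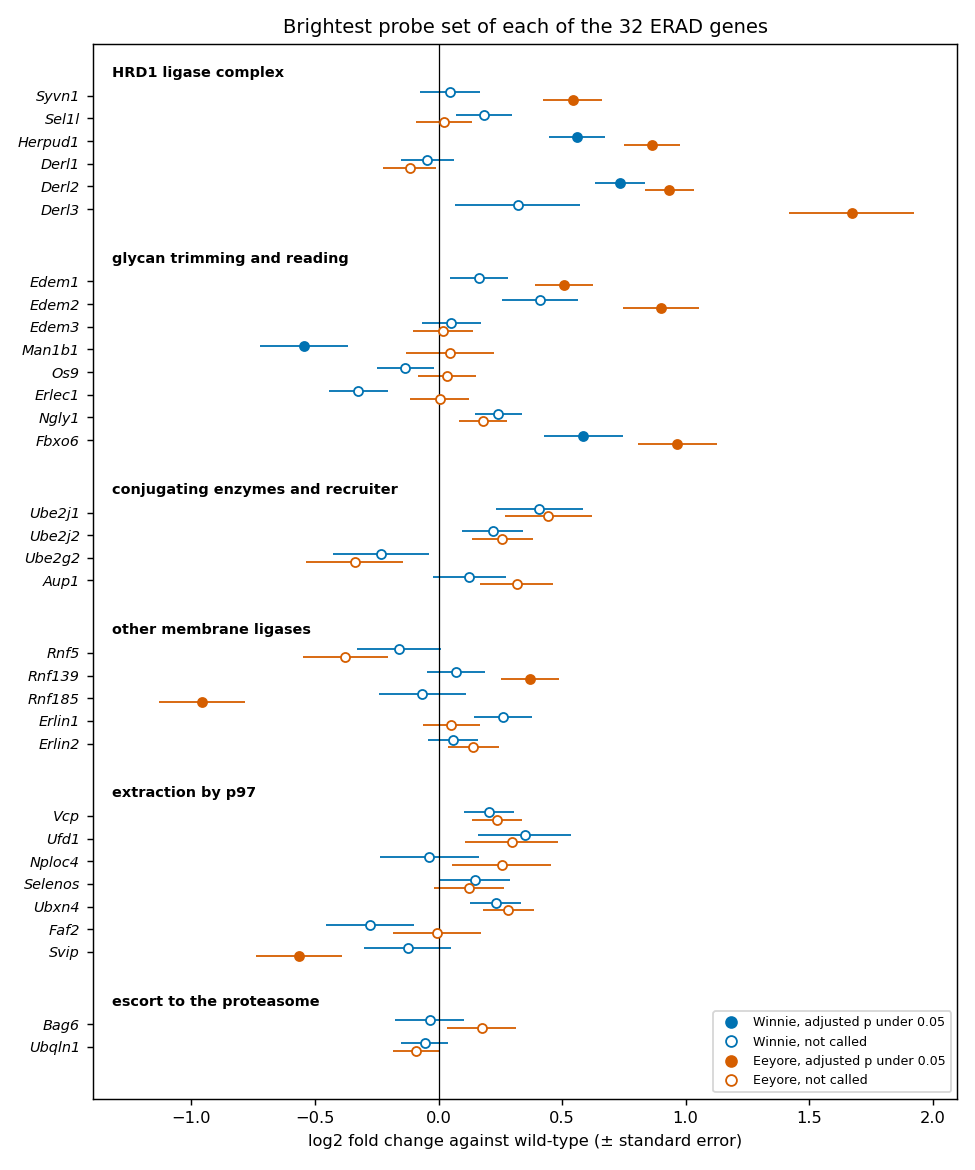
Log2 fold change against wild-type (x axis, ± standard error, 3 mice per group) of the brightest probe set of each of the 32 ERAD genes, grouped by role, in *Winnie* (blue) and *Eeyore* (orange), with filled circles for a limma adjusted p under 0.05. Filled circles to the right of zero lie mostly in the HRD1 complex and the glycan group, *Derl3* in *Eeyore* is farthest right at 1.67, and *Rnf185* in *Eeyore* is farthest left at -0.96.

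The HRD1 ligase complex, with 6 genes, held 2 of the 3 ERAD genes that rose in *Winnie* and 4 of the 8 that rose in *Eeyore*. *Herpud1* (GRCm38.p6 chr8:94386429-94395371) encodes a ubiquitin-like membrane protein that assembles HRD1 complexes and is a well-known target of the unfolded protein response. Its signals in mice 1, 2 and 3 were 2778, 2480.5 and 2262 in wild-type, 3920.3, 3551 and 3594 in *Winnie* and 5088, 4443 and 4146 in *Eeyore*. The groups did not overlap, and wild-type was lowest and *Eeyore* highest. The log2 fold change was 0.56 ± 0.11 (limma adjusted p = 0.00517) in *Winnie*, or 1.48-fold, and 0.86 ± 0.11 (limma adjusted p = 0.000278) in *Eeyore*, or 1.82-fold. The second probe set of *Herpud1* also rose in both, by 0.78 and 0.83, with adjusted p of 0.000372 and 0.000142 in the limma fit.

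*Derl2* (GRCm38.p6 chr11:71007440-71019841) encodes a derlin, a rhomboid-like protein without protease activity that helps substrates through the membrane. Its brightest probe set read 2035, 2097 and 2264 in wild-type, 3877, 3230.3 and 3559.9 in *Winnie* and 4006, 4058 and 4146 in *Eeyore*. Every mutant mouse was above every wild-type mouse. The log2 fold change was 0.74 ± 0.10 (limma adjusted p = 0.000629) in *Winnie* and 0.93 ± 0.10 (limma adjusted p = 8.29e-05) in *Eeyore*. The second, dimmer probe set of *Derl2* did not follow, at -0.10 ± 0.17 (limma adjusted p = 0.7) and -0.35 ± 0.17 (limma adjusted p = 0.133). With the probe sets averaged, *Derl2* no longer passed the test, with adjusted p of 0.0588 in *Winnie* and 0.0653 in *Eeyore*. The same averaging added calls of other ERAD genes, given with the other probe sets.

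*Derl3* (GRCm38.p6 chr10:75893398-75895941), the derlin with the most restricted expression, known from pancreas and plasma cells, gave the largest difference of the 32 genes. Its only probe set read 259, 293 and 192 in wild-type, 447, 223 and 284 in *Winnie* and 802, 836 and 702 in *Eeyore*. All *Eeyore* mice were above all others, whereas *Winnie* overlapped wild-type, with its mouse 1 highest. *Eeyore* exceeded wild-type by 1.67 ± 0.25 (limma adjusted p = 0.000679) on the log2 scale, or 3.19-fold, and *Winnie* by 0.32 ± 0.25 (limma adjusted p = 0.394), with a 95% interval of -0.23 to 0.87. *Eeyore* exceeded *Winnie* by 1.35 ± 0.25 (limma adjusted p = 0.0142), a call that was lost without *Winnie* mouse 3, without *Eeyore* mouse 2 and without a trend of the variance on signal, where the adjusted p was 0.0727, 0.0696 and 0.0565. Because *Derl3* is expressed by plasma cells, the other 9 plasma cell markers are set beside it. In *Eeyore* 3 of them were higher, *Jchain*, *Sdc1* and *Prdm1*, and none was lower, with a median of 0.57. In *Winnie* 2 were higher, *Sdc1* and *Prdm1*, and *Txndc5* was lower, with a median of 0.27. None of the 9 passed the test between *Eeyore* and *Winnie*. Their summed signal was 25290 to 32616 in wild-type, 28609 to 36247 in *Winnie* and 35081 to 47804 in *Eeyore*, and all 9 were above the filter on low signal. *Jchain*, which joins secreted immunoglobulin, had a log2 fold change of 0.57 ± 0.20 (limma adjusted p = 0.0459) in *Eeyore*, and *Mzb1*, an ER protein of B and plasma cells, had 0.76 ± 0.30 (limma adjusted p = 0.0791). Whether these markers are restricted to plasma cells in whole large intestine was not tested, nor was the part of plasma cell number in the *Derl3* values.

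*Syvn1* (GRCm38.p6 chr19:6046576-6053718) encodes HRD1 itself, the ubiquitin ligase that forms the channel. It read 1387, 1276 and 1271 in wild-type, 1389.5, 1194 and 1492 in *Winnie* and 1917, 2009 and 1805 in *Eeyore*. *Eeyore* lay above both other groups, which overlapped. Against wild-type, *Syvn1* changed by 0.54 ± 0.12 (limma adjusted p = 0.00588) in *Eeyore* and gave 0.05 ± 0.12 (limma adjusted p = 0.815) in *Winnie*. The difference between *Eeyore* and *Winnie*, 0.50 ± 0.12 (limma adjusted p = 0.0545), did not pass. The dimmer *Syvn1* probe set was not called, at 0.24 ± 0.19 (limma adjusted p = 0.379) in *Winnie* and 0.41 ± 0.19 (limma adjusted p = 0.12) in *Eeyore*. In that set both mutants overlapped wild-type, and *Eeyore* differed from *Winnie* by 0.16 ± 0.19 (limma adjusted p = 0.73). *Sel1l*, which stabilises HRD1 and receives substrates in the lumen, was not called from its brightest probe set, at 0.19 ± 0.11 and 0.02 ± 0.11. All 4 dimmer *Sel1l* probe sets lay above zero in both mutants, and 1 of them passed in *Eeyore* at 0.67 ± 0.19 (limma adjusted p = 0.022). *Derl1*, the third derlin, gave -0.04 ± 0.11 and -0.12 ± 0.11 from its brightest probe set. A dimmer *Derl1* probe set read 1103, 998 and 1324 in wild-type, 1805, 1652 and 1589 in *Winnie* and 1611, 1905 and 1770.3 in *Eeyore*. That set was higher in every mutant mouse, by 0.57 ± 0.13 (limma adjusted p = 0.0109) and 0.63 ± 0.13 (limma adjusted p = 0.00437), and the other dimmer sets were not called.

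**Figure D2:**
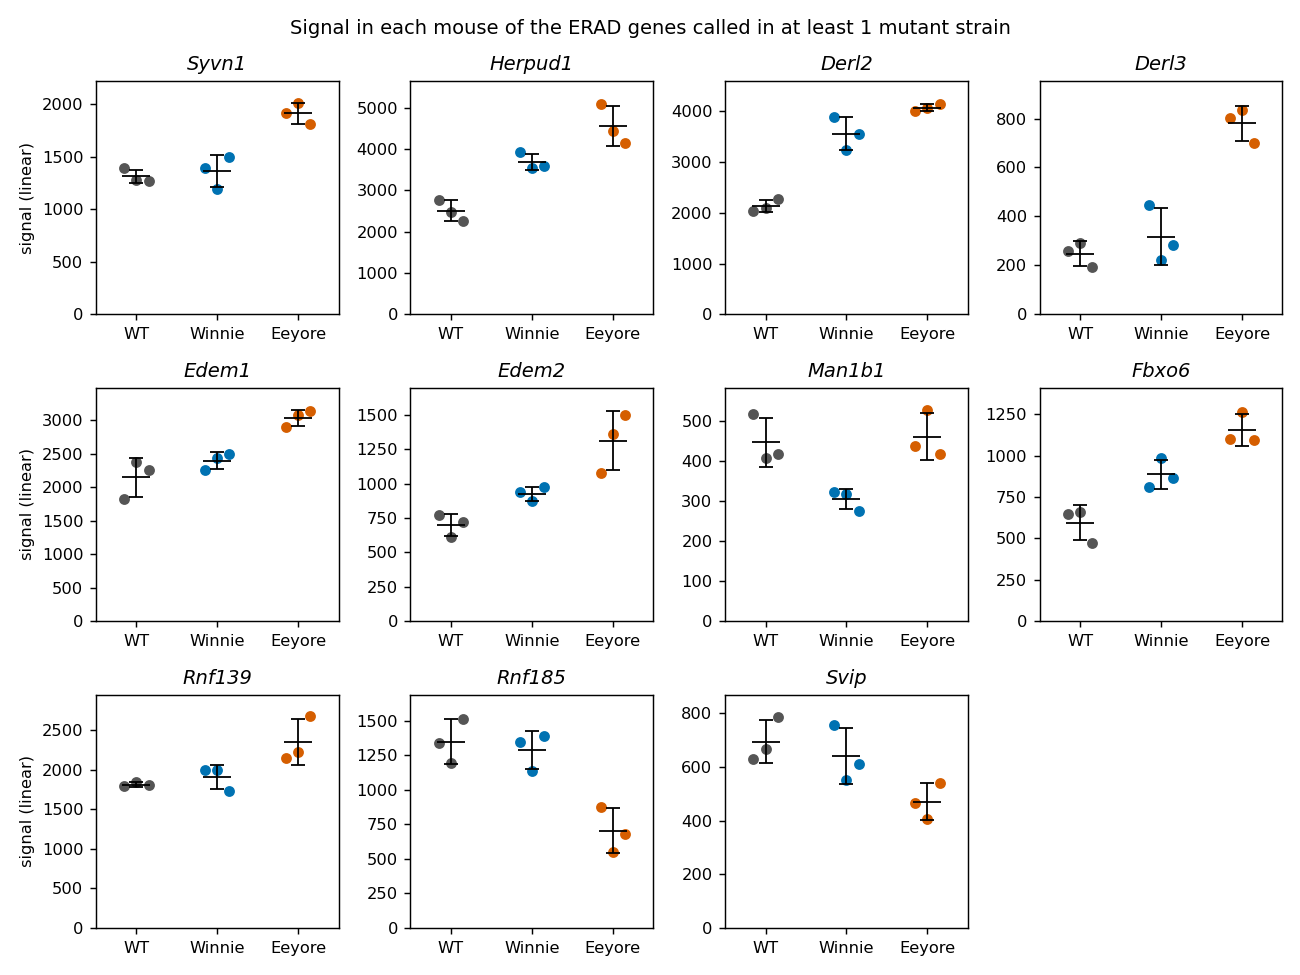
Signal (y axis, linear, from 0) of each mouse for the 11 ERAD genes that passed the test in at least 1 mutant, with wild-type (WT, grey), *Winnie* (blue) and *Eeyore* (orange) on the x axis and the mean ± SD of 3 mice as black bars. *Herpud1*, *Derl2* and *Fbxo6* step up in both mutants, while *Syvn1*, *Derl3*, *Rnf185* and *Svip* show *Winnie* mice overlapping wild-type.

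Promoter sequence is shown for the HRD1 complex genes that hold a known element of the unfolded protein response. All 3 of these genes rose in *Eeyore*, where 4 of the 6 genes of the complex did. RefSeq promoters (GRCm38.p6, 250 bases before to 50 bases after the annotated start, 32851 in all) were matched by symbol to 25 of the 32 genes (not to *Derl1*, *Erlec1*, *Ube2g2*, *Aup1*, *Rnf5*, *Rnf139* and *Erlin2*) and were searched on both strands. The ER stress response element (ERSE), bound by NF-Y together with ATF6 or XBP1, was searched as CCAAT and CCACG separated by 9 bases, its second form (ERSE-II) as ATTGG and CCACG separated by 1 base, and the XBP1-bound UPR element (UPRE) as TGACGTGG. The 3 share the letters CCACG or their reverse complement. The ERSE was found in 0.119% of all promoters, the ERSE-II in 0.0365% and the UPRE in 0.676%. Among the ERAD genes *Syvn1* and *Derl3* held an ERSE, *Herpud1* an ERSE-II, and *Ube2j1* and *Vcp* a UPRE. In the sequences, given 5′ to 3′ on the gene's strand, capitals mark the element. They lie at chr8:94386179-94386478, plus strand, at chr10:75893148-75893447, plus strand and at chr19:6046326-6046625, plus strand.
Herpud1: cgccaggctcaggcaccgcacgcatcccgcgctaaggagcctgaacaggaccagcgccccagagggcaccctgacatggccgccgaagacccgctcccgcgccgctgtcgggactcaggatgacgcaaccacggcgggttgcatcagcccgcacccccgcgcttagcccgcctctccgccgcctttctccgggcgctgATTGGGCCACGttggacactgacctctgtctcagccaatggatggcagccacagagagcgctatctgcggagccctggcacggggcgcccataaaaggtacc
Derl3: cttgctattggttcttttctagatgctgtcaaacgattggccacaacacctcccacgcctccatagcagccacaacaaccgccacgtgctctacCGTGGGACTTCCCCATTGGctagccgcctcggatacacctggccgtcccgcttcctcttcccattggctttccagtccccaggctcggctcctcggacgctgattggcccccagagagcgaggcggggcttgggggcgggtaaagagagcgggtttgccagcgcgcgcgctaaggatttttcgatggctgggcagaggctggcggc
Syvn1: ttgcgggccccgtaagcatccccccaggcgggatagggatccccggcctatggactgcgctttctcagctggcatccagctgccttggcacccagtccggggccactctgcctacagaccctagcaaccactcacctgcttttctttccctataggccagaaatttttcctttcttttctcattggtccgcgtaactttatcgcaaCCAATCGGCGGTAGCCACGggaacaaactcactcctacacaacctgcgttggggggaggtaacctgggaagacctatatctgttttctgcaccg
The element ended 41 bases before the start of *Herpud1* and 25 bases before that of *Syvn1*, and in *Derl3* it lay on the opposite strand, 137 bases before the start. For *Ube2j1* and *Vcp*, 60 bases around the UPRE are shown, from chr4:33031286-33031345, plus strand, and from chr4:43000588-43000647, minus strand.
Ube2j1: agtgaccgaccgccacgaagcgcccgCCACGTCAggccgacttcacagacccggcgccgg
Vcp: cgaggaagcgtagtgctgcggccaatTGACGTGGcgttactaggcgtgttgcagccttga
The match of letters is a description and not evidence of binding. *Herpud1* rose in both mutants and *Syvn1* and *Derl3* passed in *Eeyore*, whereas *Vcp* passed in neither from its brightest probe set and *Ube2j1* passed in both from its dimmer probe set alone. *Derl2*, *Edem1*, *Edem2* and *Fbxo6* rose without any of the 3 elements in the window searched.

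Of the 8 genes that trim or read glycans, 1 rose and 1 fell in *Winnie*, and 3 rose in *Eeyore*. *Edem1* and *Edem2* encode mannosidase-like proteins that commit glycoproteins to disposal. *Edem2* read 770.4, 611 and 718 in wild-type, 935, 872 and 972 in *Winnie* and 1078, 1361 and 1495 in *Eeyore*. The groups did not overlap, in the order wild-type, *Winnie*, *Eeyore*, and the log2 fold change passed in *Eeyore*, at 0.90 ± 0.15 (limma adjusted p = 0.00132), but not in *Winnie*, at 0.41 ± 0.15 (limma adjusted p = 0.0759). *Edem1* read 1821, 2371 and 2255 in wild-type, 2252, 2436 and 2498 in *Winnie* and 2899, 3079.6 and 3133 in *Eeyore*. *Eeyore* was above both other groups, by 0.51 ± 0.12 (limma adjusted p = 0.00726) over wild-type, and *Winnie* overlapped wild-type at 0.16 ± 0.12 (limma adjusted p = 0.339). The dimmer *Edem1* probe set had the same direction and was not called, with 0.32 ± 0.12 (limma adjusted p = 0.0623) in *Eeyore*. Neither gene passed the test between the mutants.

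*Fbxo6* (GRCm38.p6 chr4:148145716-148152135) encodes the sugar-binding F-box subunit of a cytosolic ubiquitin ligase that recognises retrotranslocated glycoproteins. It read 649, 662 and 475 in wild-type, 811, 983 and 866 in *Winnie* and 1101, 1265 and 1092 in *Eeyore*. Here too the groups did not overlap, and *Eeyore* was highest. In log2 units the changes were 0.59 ± 0.16 (limma adjusted p = 0.0224) in *Winnie* and 0.97 ± 0.16 (limma adjusted p = 0.00114) in *Eeyore*, the latter 1.95-fold. The *Winnie* call was lost without wild-type mouse 3, *Winnie* mouse 2 or *Winnie* mouse 3, where the adjusted p reached 0.055 to 0.0779.

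*Man1b1*, the ER mannosidase that removes the first mannose, was the gene that fell in *Winnie*. It read 517, 407 and 417 in wild-type, 323, 317 and 276 in *Winnie* and 438, 527 and 418 in *Eeyore*. All *Winnie* mice were below the other groups, which overlapped. Its log2 fold change was -0.54 ± 0.18 (limma adjusted p = 0.0472) in *Winnie* and 0.05 ± 0.18 (limma adjusted p = 0.872) in *Eeyore*. The *Winnie* value is close to the threshold: the call was lost under 14 of 18 alternatives, among them the omission of any single wild-type or *Winnie* mouse or of *Eeyore* mouse 1 or 2, with an adjusted p of up to 0.161. The lectin genes *Os9* and *Erlec1* were not called from their brightest probe sets. *Os9* gave -0.13 ± 0.12 and 0.04 ± 0.12, and *Erlec1* gave -0.32 ± 0.12 (limma adjusted p = 0.0726) in *Winnie* and 0.00 ± 0.12 in *Eeyore*. Both dimmer *Erlec1* sets were called lower in *Winnie*, at -0.80 and -0.82 (limma adjusted p = 0.0228 and 0.0219). In *Eeyore* these sets gave -0.15 and -0.83 (limma adjusted p = 0.642 and 0.0162). From their brightest probe sets, *Edem3*, at 0.05 ± 0.12 and 0.02 ± 0.12, and *Ngly1*, the cytosolic glycanase that strips the glycan, at 0.24 ± 0.10 and 0.18 ± 0.10, were not called.

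None of the 4 genes for ubiquitin-conjugating enzymes and their recruiter passed from its brightest probe set. *Ube2j1* encodes the membrane-anchored partner enzyme of HRD1. Its brightest probe set read 746, 1092 and 1088 in wild-type, 1132, 1558 and 1175 in *Winnie* and 1218, 1351 and 1358 in *Eeyore*, with 0.41 ± 0.17 (limma adjusted p = 0.114) in *Winnie* and 0.44 ± 0.17 (limma adjusted p = 0.0747) in *Eeyore*. The dimmer read 458, 461 and 483 in wild-type, 833, 992 and 947 in *Winnie* and 924, 945 and 836 in *Eeyore*. Both sets had every mutant mouse above every wild-type mouse, and the dimmer rose by 0.98 ± 0.13 (limma adjusted p = 0.000646) and 0.95 ± 0.13 (limma adjusted p = 0.000455). *Ube2j2*, its paralog, gave 0.22 ± 0.12 and 0.26 ± 0.12. The dimmer *Ube2j2* set lay on the other side of zero, at -0.64 (limma adjusted p = 0.116) in *Winnie* and -1.06 (limma adjusted p = 0.014) in *Eeyore*. *Ube2g2*, the conjugating enzyme held at the ER by *Aup1*, gave -0.23 ± 0.20 and -0.34 ± 0.20, and *Aup1* gave 0.12 ± 0.15 and 0.32 ± 0.15.

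Among the 5 genes of other membrane ligases and their scaffolds, 1 rose and 1 fell in *Eeyore*, and none passed in *Winnie*. *Rnf185* (GRCm38.p6 chr11:3415973-3452956) encodes a RING ligase of the ER and outer mitochondrial membrane. Its brightest probe set read 1337, 1197 and 1516 in wild-type, 1344, 1136 and 1388 in *Winnie* and 879, 552 and 683 in *Eeyore*. Every *Eeyore* mouse was below every mouse of the other groups, and *Winnie* overlapped wild-type. The log2 fold change was -0.96 ± 0.17 (limma adjusted p = 0.00203) in *Eeyore*, or 1.94-fold lower, and -0.07 ± 0.17 (limma adjusted p = 0.82) in *Winnie*. The second probe set also fell in *Eeyore*, by 0.64 ± 0.14 (limma adjusted p = 0.00561) on the log2 scale. The log2 difference of *Eeyore* from *Winnie* was -0.89 ± 0.17 (limma adjusted p = 0.019), a call that was lost without the variance trend or without *Winnie* mouse 1 or 3 or *Eeyore* mouse 2 or 3, with an adjusted p of at most 0.0986. The second probe set had the same direction between the mutants and did not pass, at -0.46 ± 0.14 (limma adjusted p = 0.127).

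*Rnf139*, which encodes the sterol-sensing ligase TRC8, read 1791, 1849 and 1803 in wild-type, 1995, 1995 and 1738 in *Winnie* and 2145, 2231 and 2687 in *Eeyore*. *Eeyore* was above both other groups, at 0.37 ± 0.12 (limma adjusted p = 0.0339), and *Winnie* gave 0.07 ± 0.12. The *Eeyore* call was lost with quantile normalisation, without the variance trend, or without any 1 of the wild-type mice or *Eeyore* mouse 2 or 3, with an adjusted p of up to 0.117. *Rnf5*, the close relative of *Rnf185*, gave -0.16 ± 0.17 and -0.38 ± 0.17, and was not called. *Erlin1* and *Erlin2*, prohibitin-family scaffolds that select activated IP3 receptors for ERAD, had log2 fold changes between 0.05 and 0.26 and were not called.

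The 7 genes of extraction by p97 showed 1 call. *Svip*, a small p97-binding protein known as an inhibitor of ERAD, read 630.4, 666 and 786 in wild-type, 754, 551 and 611 in *Winnie* and 466, 406 and 540.4 in *Eeyore*. *Eeyore* was below both other groups, which overlapped. Against wild-type the log2 difference was -0.56 ± 0.18 (limma adjusted p = 0.0307) in *Eeyore* and -0.13 ± 0.18 (limma adjusted p = 0.644) in *Winnie*, and the dimmer probe set gave -0.12 ± 0.21 in *Eeyore*. The *Eeyore* call was lost under 7 of 19 alternatives, including quantile normalisation and the omission of wild-type mouse 2 or 3 or of *Eeyore* mouse 1 or 2, with an adjusted p of up to 0.15. *Vcp*, which encodes p97, was not called, at 0.20 ± 0.10 (limma adjusted p = 0.167) and 0.24 ± 0.10 (limma adjusted p = 0.1), with 95% intervals of -0.02 to 0.42 and 0.02 to 0.46. Its cofactors *Ufd1* and *Nploc4* had intervals in *Eeyore* of -0.11 to 0.70 and -0.18 to 0.69. *Selenos*, a selenoprotein that anchors p97 to derlins, was not called from its brightest probe set, at 0.15 ± 0.14 and 0.12 ± 0.14, but a dimmer set read 984, 1146 and 1191 in wild-type, 1675, 1496 and 1865 in *Winnie* and 1987, 1608 and 1381 in *Eeyore*. That set rose by 0.60 ± 0.15 (limma adjusted p = 0.0163) in *Winnie* and 0.57 ± 0.15 (limma adjusted p = 0.0153) in *Eeyore*. The other dimmer *Selenos* set gave 0.45 (limma adjusted p = 0.0566) in *Winnie* and passed in *Eeyore* at 0.55 (limma adjusted p = 0.0194). The *Eeyore* call of this other set was lost under 4 of 18 alternatives, with an adjusted p of up to 0.0803. The UBX-domain recruiters *Ubxn4* and *Faf2* were not called. *Ubxn4* gave 0.23 ± 0.10 (limma adjusted p = 0.129) and 0.28 ± 0.10 (limma adjusted p = 0.0581), and *Faf2* gave -0.28 ± 0.18 and -0.01 ± 0.18. Of the genes that escort substrates to the proteasome, *Bag6*, which keeps them soluble, gave -0.04 ± 0.14 and 0.17 ± 0.14, and the shuttle *Ubqln1* gave -0.06 ± 0.10 and -0.09 ± 0.10. The dimmer tested *Ubqln1* set gave 0.36 (limma adjusted p = 0.0547) in *Winnie* and rose by 0.61 (limma adjusted p = 0.00355) in *Eeyore*.

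Agreement among probe sets of one gene was limited. Of the 32 genes, 19 had more than 1 tested probe set, with 27 dimmer sets in all. In *Winnie*, 17 of the 27 had the sign of their gene's brightest set, and in *Eeyore* 15 of 27. In *Winnie* 4 of the 27 dimmer sets were higher and 3 lower. In *Eeyore* 7 of the 27 were higher and 5 lower. Over all genes tested, each read from its brightest set, 11.3% were higher and 11.9% lower in *Winnie*, and 14% and 16.6% in *Eeyore*. The share over all dimmer probe sets was not counted. No gene had probe sets called in opposite directions. A dimmer set was called higher where the brightest was not called for 3 genes in *Winnie* (*Derl1*, *Ube2j1*, *Selenos*) and for 5 in *Eeyore* (these and *Sel1l* and *Ubqln1*). A dimmer set was called lower in that way for 2 genes in *Winnie* (*Edem3*, *Erlec1*) and for 4 in *Eeyore* (these and *Ube2j2* and *Vcp*). Of the sets called lower, that of *Edem3* read 609, 599 and 754 in wild-type, 517, 258 and 449 in *Winnie* and 358, 351 and 338 in *Eeyore*, a log2 fold change of -0.90 ± 0.24 (limma adjusted p = 0.0143) in *Eeyore*. That of *Vcp* read 389, 329 and 486 in wild-type, 399, 338 and 374 in *Winnie* and 177, 157 and 204 in *Eeyore*. The *Eeyore* mice were below all others for this *Vcp* set, with a log2 fold change of -1.15 ± 0.21 (limma adjusted p = 0.00187), while the brightest set gave 0.24. Several of these calls rested on single mice. Those of *Derl1* in *Winnie* and of *Ube2j2* and *Erlec1* in *Eeyore* were lost without wild-type mouse 2, and that of *Edem3* in *Eeyore* without wild-type mouse 3. Those of the *Selenos* set that rose in both mutants were lost without wild-type mouse 1, without *Winnie* mouse 3 in *Winnie* or without *Eeyore* mouse 1 in *Eeyore*. The *Sel1l* call was lost without wild-type mouse 2 or 3 or *Eeyore* mouse 1. In *Winnie* the *Erlec1* sets lost their calls under 4 and 6 alternatives and the *Edem3* set under 11. Those of *Ube2j1* in both mutants and of *Ubqln1* and *Vcp* in *Eeyore* held without any 1 mouse. With the mean over each gene's tested probe sets, *Ube2j1* and *Sel1l* were higher in both mutants, with adjusted p of 0.00407 and 0.0317 in *Winnie* and 0.00284 and 0.0334 in *Eeyore*, *Selenos* was higher in *Eeyore* (limma adjusted p = 0.0353), *Erlec1* was lower in *Winnie* (limma adjusted p = 0.0107) and *Vcp* was lower in *Eeyore* (limma adjusted p = 0.00712). Which transcripts each probe set detects was not tested.

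**Figure D3:**
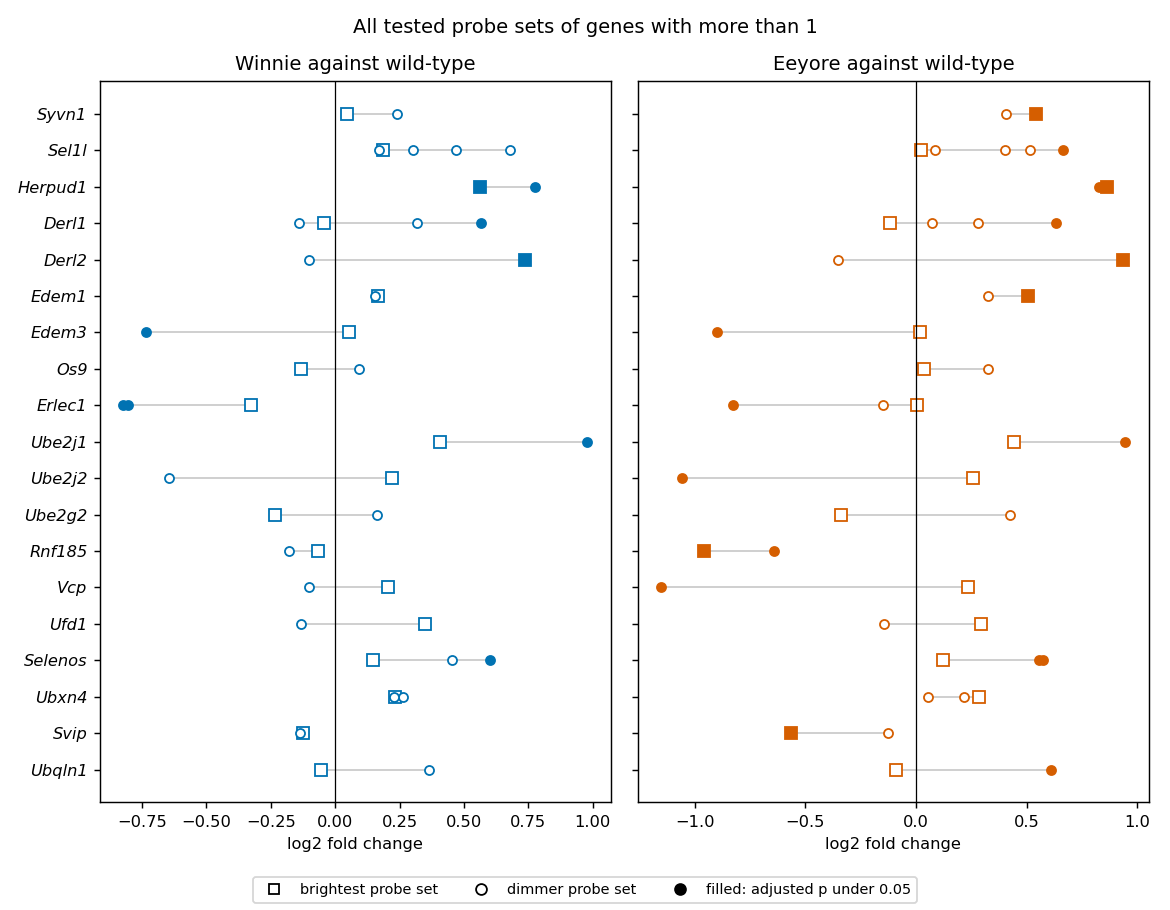
Log2 fold change against wild-type (x axis) of every tested probe set of the 19 ERAD genes with more than 1, in *Winnie* (left) and *Eeyore* (right), with squares for the brightest and circles for dimmer sets, filled where the limma adjusted p was under 0.05. The *Herpud1* and *Rnf185* sets lie together, whereas those of *Derl2*, *Ube2j2* and *Vcp* in *Eeyore* lie on both sides of zero.

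A further list of 43 components linked to ERAD, of which 39 were tested, was read beside the 32 genes. In *Winnie* 3 were higher and 1 lower, and in *Eeyore* 4 were higher and 2 lower, shares of 7.69%, 2.56%, 10.3% and 5.13%, each below the share of all genes. The medians were -0.04 and 0.02. The genes with the largest log2 fold changes in the list act inside the ER. *Sdf2l1*, a partner of ER chaperone complexes, read 226, 166 and 196 in wild-type, 484, 372 and 346 in *Winnie* and 646, 683 and 799.7 in *Eeyore*. The groups did not overlap, and the log2 fold change was 1.03 ± 0.20 (limma adjusted p = 0.00405) in *Winnie* and 1.86 ± 0.20 (limma adjusted p = 7.62e-05) in *Eeyore*. *Eeyore* exceeded *Winnie* by 0.83 ± 0.20 (limma adjusted p = 0.0499), at the edge of the threshold. *Dnajb9*, the J-domain partner of BiP that hands clients to ERAD, read 2375, 2318 and 2841 in wild-type, 5173, 3769 and 5432 in *Winnie* and 4610.3, 4101 and 4548 in *Eeyore*. Both mutants were above wild-type and overlapped each other, with 0.92 ± 0.14 (limma adjusted p = 0.00117) and 0.82 ± 0.14 (limma adjusted p = 0.00138). *Rad23b*, a proteasome shuttle, rose by 0.44 and 0.45, with adjusted p of 0.00758 and 0.00449 in the limma fit. *Ube4b*, a ubiquitin chain-elongating ligase, fell by 0.46 and 0.71 on the log2 scale, with adjusted p of 0.0408 and 0.00374, and the *Winnie* call was lost under 10 of 19 alternatives (adjusted p up to 0.139). *Usp19*, an ER-anchored deubiquitinase, fell in *Eeyore* by 0.57 (limma adjusted p = 0.0444), a call lost under 9 of 19 alternatives (adjusted p up to 0.142).

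Reference genes of the unfolded protein response did not all move together. *Hspa5*, which encodes the chaperone BiP, rose by 1.03 ± 0.10 (limma adjusted p = 8.64e-05) in *Winnie* and 1.23 ± 0.10 (limma adjusted p = 1.03e-05) in *Eeyore*, more than any of the 32 ERAD genes in *Winnie* and less than *Derl3* in *Eeyore*. *Xbp1*, the transcription factor gene whose mRNA is spliced by IRE1, gave -0.00 ± 0.08 (limma adjusted p = 0.993) and 0.05 ± 0.08 (limma adjusted p = 0.705), and the probe sets are not annotated to tell its spliced form apart.

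**Figure D4:**
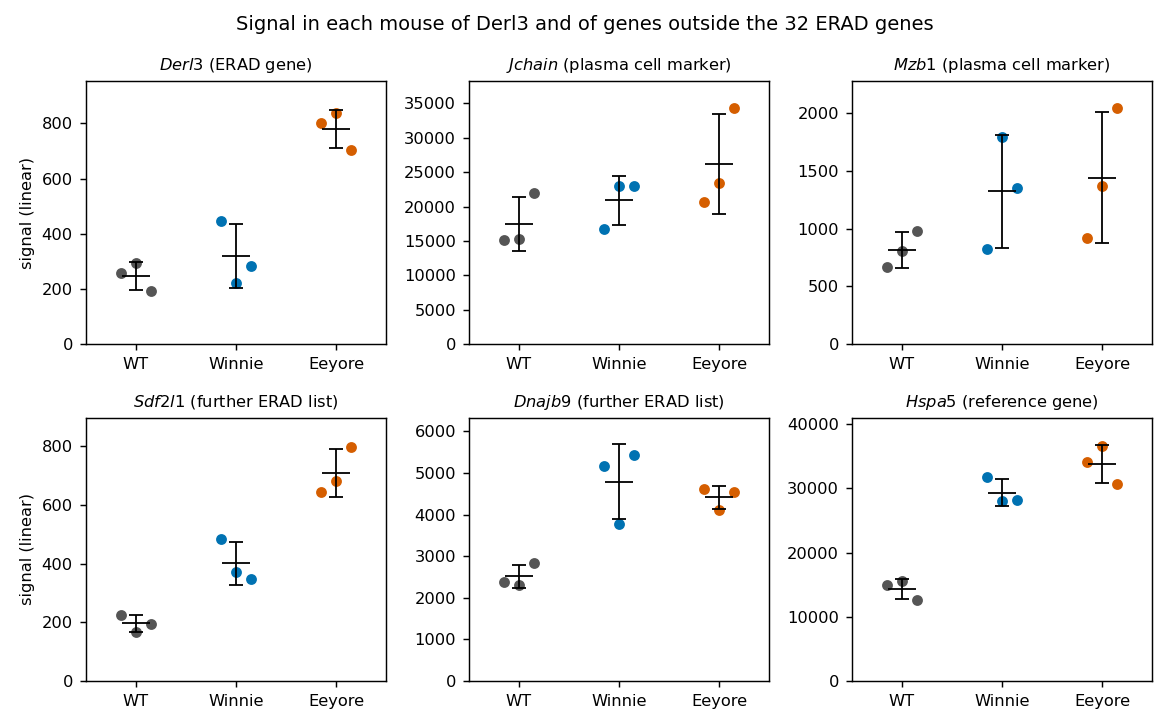
Signal (y axis, linear, from 0) in each mouse of *Derl3*, of the plasma cell markers *Jchain* and *Mzb1*, of *Sdf2l1* and *Dnajb9* from the further ERAD list, and of *Hspa5*, with the groups on the x axis and the mean ± SD of 3 mice as black bars. *Derl3* is raised in *Eeyore* with *Winnie* overlapping wild-type, *Sdf2l1* steps up from wild-type to *Winnie* to *Eeyore*, and *Dnajb9* and *Hspa5* are raised in both mutants. *Jchain* and *Mzb1* overlap between groups, although *Jchain* passed the test in *Eeyore*. The plasma cell markers *Sdc1* and *Prdm1*, called higher in both mutants, and *Txndc5*, called lower in *Winnie*, are not drawn.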

How the data were processed

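Per the labels, total RNA from proximal and distal large intestine was joined in equal amounts for each of 9 mice, labelled with biotin and hybridised to 1 Affymetrix array. The authors deposited linear signal intensities for 45101 probe sets, scaled to a trimmed mean of 500 with 2% trimmed at each end, as checked on the values. The 64 control probe sets were left out. Probe sets were assigned to genes by the platform annotation: 34945 had 1 gene, 932 several and 9160 none, and gene symbols were updated through RefSeq (GRCm38.p6). On log2 signals, limma 3.58.1 (R 4.3.3) estimated a mean for each group from all arrays, with eBayes and an intensity trend of the variance. Probe sets under the median mean log2 signal were left out, and p-values of the 22519 tested were adjusted by Benjamini-Hochberg, with a threshold of 0.05. A gene was called from its brightest probe set annotated to it alone. All 32 genes were described, with the 4 largest called changes per mutant of a further ERAD list, and *Hspa5* and *Xbp1*. The genes and lists were chosen with earlier results of these data known. The mice are separate animals per the labels, and the main fit did not pair them by their numbers 1 to 3. Figures were drawn with matplotlib 3.10.9. Alternatives were quantile normalisation, median centring, other filters, a pseudocount of 32, no trend, a robust variance model, the mean over probe sets, 2 groups alone, a replicate block, the authors' ratio of mean signals at 2-fold, and leaving out each mouse.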

Additional observations from a re-analysis of the deposited data

Results flagged for a closer look

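Among all tested probe sets of the 32 ERAD genes, 3 differences between *Eeyore* and *Winnie* passed the limma test. *Derl3* was higher in *Eeyore* by 1.35 on the log2 scale. *Rnf185* had a log2 difference of -0.89 from its brightest probe set. The dimmer probe set of *Vcp* had a log2 difference of -1.05, while its brightest had 0.03, and the call of the dimmer set was lost without *Winnie* mouse 1 or 3 or *Eeyore* mouse 2. The 3 mice of each group are too few for a test of single outlying mice.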

How the results depend on the processing

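Tests were repeated under 12 kinds of alternative, including the omission of each mouse in turn, and 8 of the 14 calls of ERAD genes against wild-type held under every one that gave a test: *Syvn1*, *Derl3*, *Edem1*, *Edem2*, *Fbxo6* and *Rnf185* in *Eeyore* and *Herpud1* in both mutants. The counts of calls moved most with the scaling. Centring each array on its median moved the median log2 fold change of all genes from -0.05 to 0.10 in *Winnie* and from -0.04 to 0.12 in *Eeyore*. It gave 10 and 15 ERAD genes higher (31.2% and 46.9%, beside 18.4% and 22.9% of all genes) and 0 and 1 lower (0% and 3.12%, beside 7.75% and 11.1% of all genes). Between the mutants, 2 were higher in *Eeyore* (6.25%, beside 1.55% of all genes). Of the 39 tested genes of the further list, 5 and 9 were higher and 0 and 1 lower, to be read beside the same shares of all genes. Quantile normalisation gave 7 ERAD genes higher in *Eeyore* (21.9%, beside 15.1% of all genes) and 1 lower (3.12%, beside 14.1% of all genes). The ratio of mean signals at 2-fold gave 0 and 1 ERAD genes higher, 0 and 0 lower, 0 lower between the mutants, and 1 and 1 higher and 0 and 0 lower of the further list. By that ratio 1.96% and 2.87% of all genes were higher and 5.86% and 8.09% lower. For the settings that follow in this section, the share over all genes was not counted. The single lower call in *Winnie*, *Man1b1*, became 0 without a filter, with the robust variance model and with only the 2 groups compared. The count of lower calls in *Winnie* was 2 with the mean over probe sets. It was 0 with the filter at percentile 75, where *Man1b1* fell under the filter and was not tested. Between the mutants, 0 genes were higher and 0 lower without the variance trend, 2 were higher with the robust model and 2 lower with the mean over probe sets. For the further list, 0 were lower in *Winnie* without a filter, without the variance trend or with the mean over probe sets, and 1 was lower in *Eeyore* without a filter or without the trend. Over the fits without 1 mouse, ERAD genes lower in *Winnie* numbered 0 to 1, lower in *Eeyore* 1 to 2, higher between the mutants 0 to 2 and lower 0 to 1, and genes of the further list lower in *Winnie* 0 to 1 and in *Eeyore* 1 to 2.

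Deviations from the group mean correlated at r of -0.0082 to 0.16 between mice with the same number in different groups (9 pairs, 1 above 0.1). Between wild-type and *Winnie* the same-number r were 0.068, 0.085 and 0.16, above every different-number r there (-0.095 to 0.020). The other same-number r were -0.0082 to 0.044. The main fit did not use the numbers, and whether they link the mice was not tested. With the mouse number as a replicate block, 9 ERAD genes were higher in *Eeyore* in place of 8, 0 were lower in *Winnie*, and 0 of the further list were lower in *Winnie*. The share over all genes with that block was not counted.

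Many of the 1513 single-gene fits could not change sign, so their number does not measure stability. The filters, the variance settings, the 2 groups alone and the replicate block leave the log2 fold change as it was. So does leaving out a mouse of the group not compared. In all, 60 of the fits changed sign, mostly of values near zero. The exceptions include *Ube2g2* (-0.34) and *Ube2j2* (0.26) in *Eeyore*, *Ube2j2* in *Winnie* (0.22) and *Vcp* in *Eeyore* (0.24), which changed sign with the mean over probe sets. In 1 of the 60 the gene was called on either side, that of *Vcp* in *Eeyore* with the mean over probe sets. With quantile normalisation the changed values were -0.0369 for *Sel1l* in *Eeyore*, -0.0391 for *Edem3* in *Winnie*, -0.0564 for *Edem3* in *Eeyore*, -0.0504 for *Erlec1* in *Eeyore*, -0.0295 for *Erlin1* in *Eeyore*, 0.0915 for *Nploc4* in *Winnie*, -0.0132 for *Selenos* in *Eeyore*, 0.0953 for *Faf2* in *Eeyore*, 0.000967 for *Bag6* in *Winnie*, -0.12 for *Xbp1* in *Eeyore*. With median centring they were 0.10 for *Derl1* in *Winnie*, 0.0486 for *Derl1* in *Eeyore*, 0.0117 for *Os9* in *Winnie*, 0.0805 for *Rnf185* in *Winnie*, 0.11 for *Nploc4* in *Winnie*, 0.16 for *Faf2* in *Eeyore*, 0.0206 for *Svip* in *Winnie*, 0.11 for *Bag6* in *Winnie*, 0.0900 for *Ubqln1* in *Winnie*, 0.0755 for *Ubqln1* in *Eeyore*, 0.14 for *Xbp1* in *Winnie*. With the mean over probe sets they were 0.17 for *Derl1* in *Winnie*, 0.22 for *Derl1* in *Eeyore*, -0.34 for *Edem3* in *Winnie*, -0.44 for *Edem3* in *Eeyore*, -0.32 for *Erlec1* in *Eeyore*, -0.21 for *Ube2j2* in *Winnie*, -0.40 for *Ube2j2* in *Eeyore*, 0.0434 for *Ube2g2* in *Eeyore*, -0.46 for *Vcp* in *Eeyore*, 0.15 for *Ubqln1* in *Winnie*, 0.26 for *Ubqln1* in *Eeyore*. As the log2 ratio of mean signals it was 0.00512 for *Faf2* in *Eeyore*. Leaving out 1 mouse at a time gave -0.0246 to 0.14 for *Syvn1* in *Winnie*, -0.0217 to 0.0850 for *Sel1l* in *Eeyore*, -0.12 to 0.0264 for *Derl1* in *Winnie*, -0.0141 to 0.12 for *Edem3* in *Winnie*, -0.0865 to 0.0833 for *Edem3* in *Eeyore*, -0.0555 to 0.15 for *Man1b1* in *Eeyore*, -0.0514 to 0.0813 for *Os9* in *Eeyore*, -0.0472 to 0.0438 for *Erlec1* in *Eeyore*, -0.15 to 0.0231 for *Rnf185* in *Winnie*, -0.21 to 0.13 for *Nploc4* in *Winnie*, -0.17 to 0.0985 for *Faf2* in *Eeyore*, -0.10 to 0.00618 for *Bag6* in *Winnie*, -0.10 to 0.0216 for *Ubqln1* in *Winnie*, -0.0487 to 0.0264 for *Xbp1* in *Winnie*, -0.00116 to 0.0739 for *Xbp1* in *Eeyore*. The cause of these shifts was not tested. The number of arrays limits the precision: with 3 mice a group, standard errors of the ERAD genes' brightest probe sets were 0.10 to 0.25 on the log2 scale.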

Other observations

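Other marker genes of the intestinal wall moved in the same arrays. Of 10 myeloid markers, 3 were higher in *Winnie* and 6 in *Eeyore*, with median log2 fold changes of 0.55 and 1.10, and none was lower. Of 6 fibroblast markers, 2 were lower in *Winnie* and 3 in *Eeyore*, with medians of -0.30 and -0.49. Of 4 tested markers of enteric neurons and glia, 2 were lower in each mutant, with medians of -1.16 and -1.05. Of 2 tested endothelial markers, 1 was lower in *Winnie* and 2 in *Eeyore*. The 2 tested T cell markers of 8 listed were not called in either mutant.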
